A study of Mus musculus with 8 samples.

Results

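Transcripts of the microtubule motor cytoplasmic dynein 1 and of its cofactor dynactin were followed in single mouse MII oocytes, eggs held in the second meiotic metaphase until fertilisation. The genes were 10 listed by symbol, 6 dynactin subunits (Dctn1 to Dctn6) and 4 dynein chains (Dync1h1, Dync1i2, Dynll1 and Dynll2), and all 10 were found among the 37224 genes of the count table. The list was chosen by the knockout and control counts of these same libraries, so its values are given as a description, without a test. The 8 libraries came from 8 oocytes: 4 from Setd1b Gdf9-cKO knockout females and 4 from control females. Knockout and control females were both superovulated. The product of Setd1b methylates lysine 4 of histone H3, and the cKO label marks a conditional deletion named after Gdf9, a gene of growing oocytes. The labels give no allele for the controls, no age, and no link between oocytes and females, so p-values measure only the spread between these libraries, which may be technical.

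Cytoplasmic dynein 1 walks towards the minus ends of microtubules. Its heavy chains hold the motor, its intermediate and light intermediate chains attach cargo, and its small light chains bind to the intermediate chains. Dynactin is built around a short actin-like filament: a shoulder and arm reach out to dynein, and a cap closes each end of the filament. In dividing cells, oocytes included, the pair gathers microtubule minus ends at spindle poles, acts at kinetochores and positions the spindle.

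The libraries held 9488899 to 11313502 counts from knockout and 11029602 to 13519404 counts from control oocytes. Setd1b itself had 2.96 to 5.05 CPM (counts over library totals that were adjusted by composition factors) in knockout libraries and 9.22 to 12.8 CPM in control libraries, a log2 fold change of -1.44 ± 0.41 (SE, n = 4 per group; adjusted p = 0.0221, edgeR's quasi-likelihood test). That call was lost without knockout replicate 3 (adjusted p = 0.0519) and without control replicate 2 (0.0540), and the deleted part of the gene is not named in the labels. All 12 oocyte markers had at least 3 counts in every library, summing to 18312 to 26336 CPM in knockout and 16236 to 19178 CPM in control oocytes over library totals. Of 10 markers of cumulus and granulosa cells, Cyp19a1 and Kitl reached that floor in every library. Cyp19a1 was at 33.4 to 78.0 CPM in knockout and 74.1 to 109 CPM in control oocytes and fell (log2 fold change -0.85 ± 0.27, adjusted p = 0.0367), while Kitl did not pass (-0.40 ± 0.39). The Cyp19a1 call was lost whichever library other than knockout replicate 3 or control replicate 4 was left out (adjusted p 0.0531 to 0.120) and with scaling by library totals alone (-0.49, 0.205). Over unadjusted library totals, a scale other than that of the Cyp19a1 values, the 10 summed to 53.6 to 122 CPM in knockout oocytes. In control oocytes they summed to 71.4 to 131 CPM on that scale. Amhr2, Foxl2, Ptx3 and Tnfaip6 were at 0 in all libraries, and the part of these cells in the results was not tested. CPM is a share of a library, not a number of molecules per oocyte.

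Of the 10 genes, 5 were higher in each knockout library than in any control library: Dynll1, Dctn1, Dctn2, Dctn3 and Dctn5. All 10 passed the filter on low counts. Dctn1 and Dctn2 did so because of their 4 knockout libraries, with 0 and 1 control libraries past it. Over all 11066 tested genes 25.8% were called at an adjusted p of 0.05, 13.6% higher and 12.2% lower, and 31.3% did not overlap between the groups, 17.7% higher and 13.6% lower. Because the contrast helped choose the list, nothing is read from its count, and no call is given for its members. The median log2 fold change of the 10 was 1.00, against 0.10 over all tested genes. For the same reason, this median is a description and is not read as a shift. The authors' deposited table lists 2709 genes with the authors' own adjusted p-values, of which the highest is 0.009996. It held the same 5 and none of the other 5. Its cut is stricter than 0.05, so absence from it is not a like comparison. That table compares the same knockout and control oocytes, so its listing is no separate support for the differences. It is not read as a call here either.

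**Figure D1:**
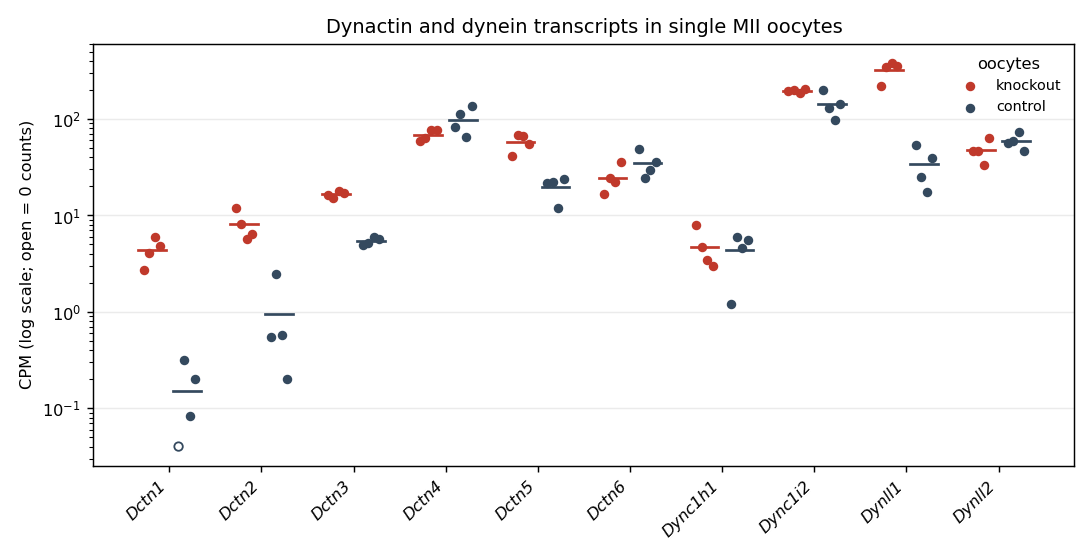
CPM on a log axis (y) of the 10 listed genes (x), one point per oocyte library, with a line at each group's mean and an open point for 0 counts. Knockout and control points stand apart for Dctn1, Dctn2, Dctn3, Dctn5 and Dynll1 and overlap for the other 5.

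The sequence around the RefSeq start sites was available for 7 of the 10 genes, in 9 windows of 300 bases (250 before to 50 after the start, RefSeq, GRCm38.p6). Dctn4, Dctn6 and Dynll2, whose groups all overlapped, had no window. The shown 6 windows were picked to set those of the 5 higher genes beside that of Dync1h1, whose groups overlapped, and CG dinucleotides are in capitals because complexes of the Setd1 type contain Cxxc1, a protein that binds unmethylated CG. The windows lie at chr5:115300941-115301240 on the minus strand for Dynll1, chr6:83179339-83179638 on the plus strand for Dctn1, chr10:127266012-127266311 on the plus strand for Dctn2, chr4:41723114-41723413 on the minus strand for Dctn3, chr7:122132791-122133090 on the plus strand for Dctn5 and chr12:110601145-110601444 on the plus strand for Dync1h1, each written 5′ to 3′ along the gene.
Dynll1: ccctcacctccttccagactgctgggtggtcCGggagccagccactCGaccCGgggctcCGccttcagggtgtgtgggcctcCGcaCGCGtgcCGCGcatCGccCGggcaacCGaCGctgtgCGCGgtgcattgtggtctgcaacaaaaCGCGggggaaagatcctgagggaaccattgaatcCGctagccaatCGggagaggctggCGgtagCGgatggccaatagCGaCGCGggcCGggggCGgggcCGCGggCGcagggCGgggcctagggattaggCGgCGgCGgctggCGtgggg
Dctn1: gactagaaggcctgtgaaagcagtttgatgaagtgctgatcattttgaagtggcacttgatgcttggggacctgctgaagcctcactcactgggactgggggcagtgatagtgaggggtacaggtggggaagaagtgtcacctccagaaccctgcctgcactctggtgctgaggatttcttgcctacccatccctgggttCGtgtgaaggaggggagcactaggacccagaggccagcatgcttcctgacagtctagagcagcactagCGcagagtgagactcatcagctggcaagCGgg
Dctn2: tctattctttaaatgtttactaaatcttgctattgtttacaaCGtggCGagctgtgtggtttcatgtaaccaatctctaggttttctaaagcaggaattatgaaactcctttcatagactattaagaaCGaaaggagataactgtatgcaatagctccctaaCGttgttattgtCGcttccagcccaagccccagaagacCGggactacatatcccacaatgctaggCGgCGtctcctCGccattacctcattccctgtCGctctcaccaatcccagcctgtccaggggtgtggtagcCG
Dctn3: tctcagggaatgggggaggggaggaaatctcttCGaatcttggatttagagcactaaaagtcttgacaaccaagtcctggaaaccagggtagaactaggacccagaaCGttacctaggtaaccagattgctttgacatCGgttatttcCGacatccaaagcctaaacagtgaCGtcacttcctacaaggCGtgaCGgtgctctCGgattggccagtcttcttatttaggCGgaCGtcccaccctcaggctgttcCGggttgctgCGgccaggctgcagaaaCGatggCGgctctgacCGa
Dctn5: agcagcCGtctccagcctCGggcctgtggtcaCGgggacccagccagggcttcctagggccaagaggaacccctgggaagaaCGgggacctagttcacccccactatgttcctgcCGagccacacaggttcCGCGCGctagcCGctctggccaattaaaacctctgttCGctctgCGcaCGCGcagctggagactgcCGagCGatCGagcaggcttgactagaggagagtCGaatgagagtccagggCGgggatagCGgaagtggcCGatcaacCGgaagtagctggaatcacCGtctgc
Dync1h1: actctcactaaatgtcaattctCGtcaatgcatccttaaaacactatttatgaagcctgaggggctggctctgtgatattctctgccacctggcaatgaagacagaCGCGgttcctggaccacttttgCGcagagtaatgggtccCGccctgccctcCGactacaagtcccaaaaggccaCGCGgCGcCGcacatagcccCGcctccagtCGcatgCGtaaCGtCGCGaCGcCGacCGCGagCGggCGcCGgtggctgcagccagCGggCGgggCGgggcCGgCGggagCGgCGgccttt

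These windows ranged from CG-poor to CG-rich. Dynll1 had 34 CG dinucleotides and 71.0% G or C, more CG than 92.3% of all 32851 windows, whose median was 7 CG and 52.7% G or C. Dctn5 had 22 CG, Dctn3 15, Dctn2 11 and the shown Dctn1 window 3. The second Dctn1 window (chr6:83185696-83185995) had 7, and both Dctn1 windows lie inside the gene span used for counting, not at its outer edge. Dync1h1 had 30 CG. A relation between CG content and the differences was not tested. The 2 windows of Dync1i2 had 6 and 25. In all, 5 motifs were searched on both strands, and no occurrence of one shared bases with another in these windows. CCAAT was present in 4 of the 9 windows (those of Dynll1, Dctn2, Dctn3 and Dctn5) and in 37.4% of all windows. GGGCGG was present in 5 of 9 and in 35.7% of all, and CCGGAAG in the Dctn5 window and in 8.86% of all. The 2 windows of Dync1i2 overlap and share a GGGCGG site, which counts in both. TATAAA (13.6% of all windows) and CACGTG (7.15%) were in none of the 9.

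The widest separation among the dynein chains was that of Dynll1 (ENSMUSG00000009013, chromosome 5, 115297110 to 115300999, minus strand, mm10). It encodes a small light chain that binds short linear motifs in dynein and in many other proteins. Dynll1 had 223, 349, 381 and 352 CPM in knockout replicates 1 to 4, against 53.5, 25.1, 17.5 and 39.1 CPM in control replicates 1 to 4. The lowest knockout oocyte thus stood above the highest control oocyte. The log2 fold change was 3.27 ± 0.33 (SE), a 9.67-fold higher level, and its values ranged from 3.05 to 3.69 over 15 alternative settings. Per length, Dynll1 averaged 111 ± 24.1 CPM per kilobase in knockout and 11.6 ± 5.42 CPM per kilobase in control oocytes (SD, n = 4), above 95.9% and 68.3% of tested genes in those groups.

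Its paralog Dynll2 (ENSMUSG00000020483, chromosome 11, 87979525 to 87987533, minus strand) encodes the interchangeable light chain, with a coding sequence of the same 267 bases over the same 3 exons. Dynll2 had 46.6, 47.2, 33.2 and 63.5 CPM in knockout replicates 1 to 4, against 56.0, 59.8, 74.2 and 47.2 CPM in control replicates 1 to 4. The groups overlapped, and the log2 fold change of -0.32 ± 0.24 turned to 0.07 with scaling by library totals alone. None of the 75-base windows of Dynll2 transcripts occurred in another gene, and 0.902% of those of Dynll1 did, none of them in Dynll2, so reads of the pair could be told apart.

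The order of the 2 light chains differed between the groups. Dynll1 made up 81.7%, 87.4%, 91.5% and 83.8% of the summed level per length of the pair in knockout replicates 1 to 4, against 47.2%, 28.2%, 18.1% and 43.6% in control replicates 1 to 4. With the summed exon lengths used, Dynll2 was the more abundant transcript of the pair in every control oocyte, and Dynll1 in every knockout oocyte. In counts not divided by length, Dynll1 held 19.1% to 48.8% in control and 82.7% to 92.0% in knockout oocytes. Control replicates 1 and 4 lay close to an even split, so another choice of transcript lengths could change their order. The mean share was 86.1 ± 4.27% in knockout and 34.3 ± 13.6% in control oocytes (SD, n = 4). Leaving out 1 oocyte moved it between 84.3% and 87.6% in knockout and between 30.0% and 39.7% in control oocytes, and a scaling factor of a library cancels from a share. The summed level of the pair was 129 ± 24.0 CPM per kilobase in knockout and 33.2 ± 3.87 CPM per kilobase in control oocytes.

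**Figure D2:**
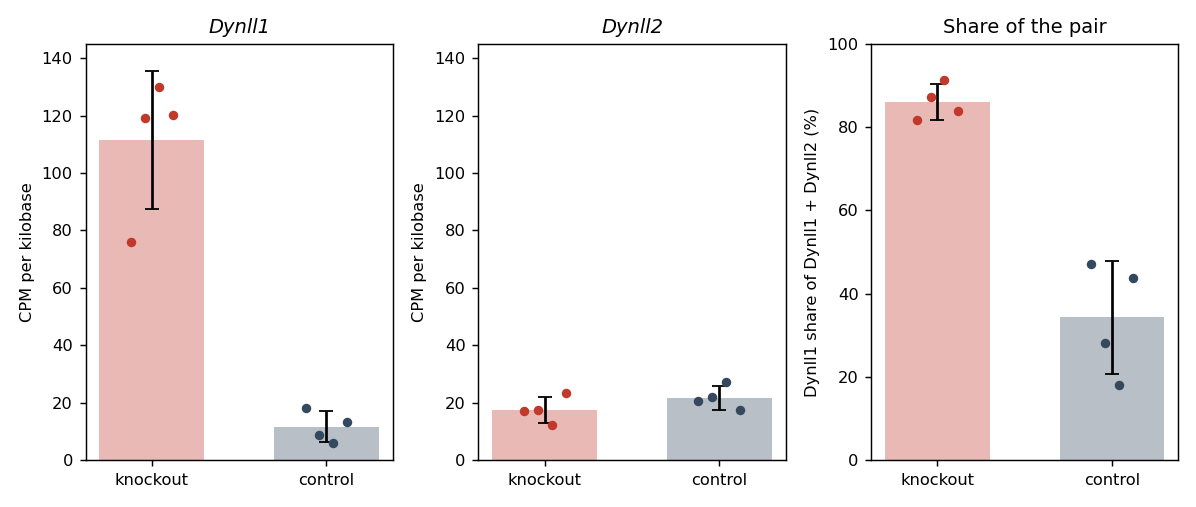
Level per length of Dynll1 and of Dynll2 (CPM per kilobase, linear axes from 0) and the share of Dynll1 in their sum (percent), knockout left of control. Bars are means, error bars SD and points the 4 oocytes of each group; the Dynll1 share is 81.7% to 91.5% in knockout and 18.1% to 47.2% in control oocytes.

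The heavy chain and the intermediate chain did not separate the groups in CPM. Dync1h1 (ENSMUSG00000018707, chromosome 12, 110601452 to 110666945, plus strand), the motor subunit, had 7.95, 4.67, 3.41 and 2.98 CPM in knockout replicates 1 to 4, against 1.21, 5.91, 4.61 and 5.60 CPM in control replicates 1 to 4. The log2 fold change of Dync1h1 was 0.13 ± 0.61 and had the opposite sign without knockout replicate 1 (-0.23) and without control replicate 1, which holds the lowest value of all 8. It is the longest of the 10 genes, with 13932 coding bases in 77 exons. Per length it was among the 2 lowest of the 10 in knockout oocytes, at 0.303 ± 0.144 CPM per kilobase, against 0.277 ± 0.138 CPM per kilobase in control oocytes.

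Dync1i2 (ENSMUSG00000027012, chromosome 2, 71211706 to 71263303, plus strand) encodes an intermediate chain, the scaffold for the light chains and the contact to the Glued subunit of dynactin. It had 194, 202, 187 and 203 CPM in knockout replicates 1 to 4, against 201, 130, 97.7 and 143 CPM in control replicates 1 to 4. The coefficient of variation was 3.78% in knockout and 30.2% in control oocytes, and control replicate 1 lay inside the knockout range. The log2 fold change was 0.46 ± 0.21, and 0.66 without control replicate 1. It depended on the scaling: over 15 alternatives it ran from 0.31 to 0.87, the highest with library totals alone.

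In the shoulder and arm of dynactin, all 3 listed genes were higher in knockout oocytes. Dctn1 (ENSMUSG00000031865, chromosome 6, 83165920 to 83200117, plus strand), the Glued subunit, which binds microtubules and the dynein intermediate chain, had 2.70, 4.07, 6.02 and 4.84 CPM in knockout replicates 1 to 4, against 0, 0.319, 0.0824 and 0.200 CPM in control replicates 1 to 4. These values rest on 36, 54, 67 and 52 counts in knockout and 0, 4, 1 and 2 counts in control libraries. Dctn1 was close to undetected in control oocytes: the floor of 3 counts is 0.222 to 0.316 CPM over library totals. The log2 fold change of 4.74 ± 0.93 was 5.37 without control replicate 2, over 1.5 times as large a fold, and 4.38 without control replicate 1.

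Dctn2 (ENSMUSG00000025410, chromosome 10, 127266262 to 127281959, plus strand) encodes dynamitin, the shoulder subunit whose excess takes dynactin apart. It had 12.1, 8.21, 5.66 and 6.42 CPM in knockout replicates 1 to 4, against 0.550, 2.47, 0.577 and 0.200 CPM in control replicates 1 to 4. The control values rest on 5, 31, 7 and 2 counts, and replicate 2 stands above the other 3. The log2 fold change of 3.06 ± 0.76 was 4.15 without control replicate 2 and 2.72 without control replicate 4, and 1 control library reached the filter on low counts. The gene shares 4 bases with Mbd6 on the opposite strand.

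Dctn3 (ENSMUSG00000028447, chromosome 4, 41714798 to 41723170, minus strand), the smallest shoulder subunit, varied little among oocytes. It had 16.3, 15.1, 17.8 and 16.9 CPM in knockout replicates 1 to 4, against 4.95, 5.19, 5.93 and 5.70 CPM in control replicates 1 to 4. The coefficient of variation was 6.93% in knockout and 8.29% in control oocytes. The log2 fold change was 1.60 ± 0.33, between 1.31 and 1.99 over 15 alternatives. Summed per length, the 3 shoulder and arm genes reached 20.7 ± 1.24 CPM per kilobase in knockout oocytes (SD, n = 4). Control oocytes reached 5.74 ± 0.553 CPM per kilobase (SD, n = 4), and the ratio was 3.61. Each of the 3 was already higher in every knockout oocyte, so their sum could not overlap. Dctn3 made up most of it, at 15.8 CPM per kilobase in knockout and 5.22 CPM per kilobase in control oocytes.

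The listed genes of the pointed-end cap, which helps choose the cargo of dynactin, were uneven. Dctn5 (ENSMUSG00000030868, chromosome 7, 122133041 to 122149044, plus strand) had 40.9, 68.2, 67.5 and 54.8 CPM in knockout replicates 1 to 4, against 21.8, 22.3, 11.9 and 23.8 CPM in control replicates 1 to 4. The groups did not overlap, and the log2 fold change was 1.54 ± 0.28, between 1.35 and 1.94 over 15 alternatives.

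Dctn4 (ENSMUSG00000024603, chromosome 18, 60526221 to 60558762, plus strand) had 58.6, 63.1, 77.1 and 77.6 CPM in knockout replicates 1 to 4, against 83.1, 112, 64.6 and 135 CPM in control replicates 1 to 4, a log2 fold change of -0.51 ± 0.24. Dctn6 (ENSMUSG00000031516, chromosome 8, 34090420 to 34108796, minus strand), whose product pairs with that of Dctn5, had 16.6, 24.3, 22.4 and 35.5 CPM in knockout replicates 1 to 4, against 49.3, 24.7, 29.3 and 36.0 CPM in control replicates 1 to 4, a log2 fold change of -0.49 ± 0.31. Both overlapped between the groups, and with scaling by library totals alone they were at -0.11 and -0.09. Reads of Dctn6 are less certain, since 8.39% of its 75-base windows also occur in Gm26768. The summed level per length of these 3 listed genes, a part of the cap, was 49.1 ± 8.13 CPM per kilobase in knockout oocytes. In control oocytes it was 46.3 ± 10.6 CPM per kilobase, with overlap.

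Between the highest and the lowest of the 6 Dctn genes, levels per length lay closer together in knockout oocytes. This mostly restates the difference of Dctn1, the lowest in both groups. Highest over lowest subunit was 32.3 in knockout oocytes (Dctn5 over Dctn1) and 1149 in control oocytes (Dctn4 over Dctn1), the second resting on the 7 counts of Dctn1. The shoulder and arm genes gave 29.7% of the summed level in knockout and 11.0% in control oocytes. These shares and the order between genes depend on the summed exon lengths used, which can exceed the length of 1 transcript. For Dync1i2 that length is 8280 bases, against 1914 coding and 545 3′ untranslated bases. Other transcript lengths could change the order. Over all 10 genes, the knockout order of means began with Dynll1, which stood clear of the rest. Dync1i2 (23.7 CPM per kilobase), Dctn5 (21.8), Dctn4 (18.6), Dynll2 (17.4) and Dctn3 (15.8) followed, each overlapping its neighbour, then Dctn6 (8.66) with Dctn2 (4.22), and Dctn1 (0.677) with Dync1h1 (0.303). The control order was Dctn4 (26.6), Dynll2 (21.7), Dync1i2 (17.2), Dctn6 (12.2), Dynll1 (11.6), Dctn5 (7.52) and Dctn3 (5.22), each overlapping its neighbour, then Dctn2 (0.495) with Dync1h1 (0.277), and Dctn1 (0.0231 CPM per kilobase) below all others.

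**Figure D3:**
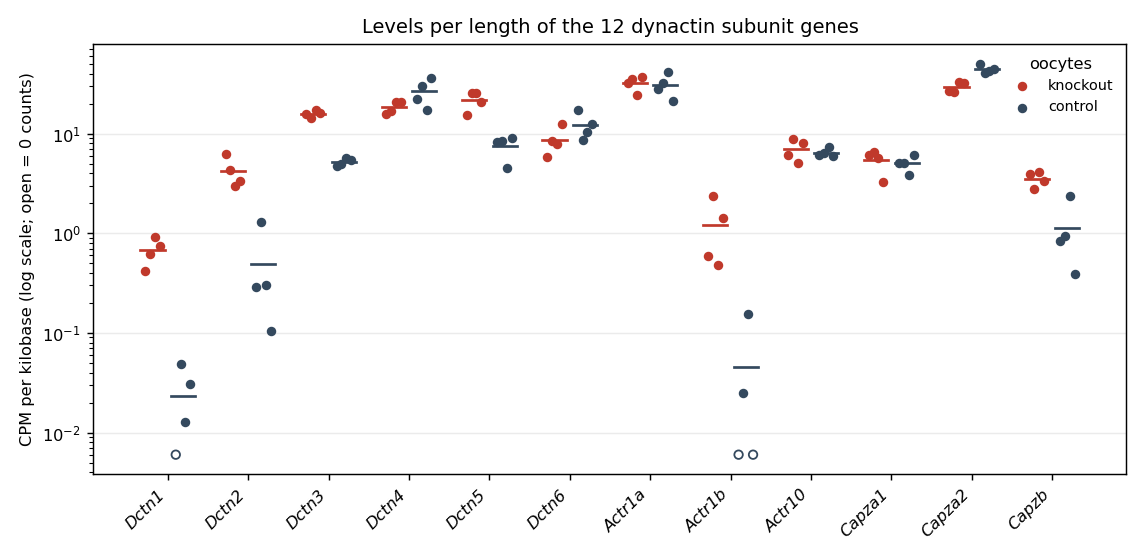
Level per length (CPM per kilobase, log axis) of the 12 dynactin subunit genes, knockout left of control, one point per oocyte with a line at the mean and an open point for 0 counts. Dctn1, Dctn2, Dctn3, Dctn5, Actr1b and Capzb are higher in every knockout oocyte, and Capza2 is lower.

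The remaining subunits, regulators and partners of the machine were taken from lists of 62 genes, of which 51 were tested; 10 rose, 5 fell and 36 did not pass. That is 29.4% called, 19.6% higher and 9.80% lower, near the 25.8%, 13.6% and 12.2% of all tested genes, and the median log2 fold change was 0.10 in both. The counts of single lists are to be read against the same shares. Among 7 tested subunits of cytoplasmic dynein 1 outside the 10, 4 rose and 0 fell in edgeR (median 2.21); 0 were lower at an unadjusted p under 0.05 or in DESeq2. Dynlrb1, a light chain of the roadblock type, had 76.5, 94.1, 127 and 78.1 CPM in knockout replicates 1 to 4, against 28.3, 13.9, 9.06 and 30.0 CPM in control replicates 1 to 4 (log2 fold change 2.21 ± 0.37, adjusted p = 0.0015). Dynlt1a and Dynlt1f, light chains of the Tctex type, rose by log2 fold changes of 2.31 (adjusted p = 0.0261) and 3.79 (0.0019), but 62.4% and 83.3% of their windows occur in near-identical copies, so they may not be separate. Dynlt1f was tested through its knockout libraries alone, with 0 control libraries past the filter on low counts, against 3 for Dynlt1a and for Dync1li1. The light intermediate chain Dync1li1 averaged 14.2 ± 4.25 CPM in knockout and 2.69 ± 1.81 CPM in control oocytes (2.40 ± 0.74, adjusted p = 0.0329). Dync1i1 (1.27), Dync1li2 (0.21) and Dynlt3 (-0.49) did not pass. The call of Dync1li1 was lost when any 1 of the knockout replicates or control replicate 3 was left out (adjusted p 0.0530 to 0.0947), and that of Dynlt1a without knockout replicate 2 or 3 or control replicate 2 (0.0607 to 0.0832). Dync1li2 was at 2.59 without control replicate 4, still not past the threshold.

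Among the 6 other dynactin subunits 2 rose and 1 fell (median 0.11). The main filament subunit Actr1a averaged 88.4 ± 15.1 CPM in knockout and 84.4 ± 22.9 CPM in control oocytes (log2 fold change 0.07 ± 0.23), while its paralog Actr1b had 1.87, 7.46, 1.53 and 4.56 CPM in knockout replicates 1 to 4, against 0, 0.0798, 0.494 and 0 CPM in control replicates 1 to 4 (4.58 ± 1.18, adjusted p = 0.0146). Actr1b was tested through its knockout libraries alone, with 0 control libraries past the filter on low counts. Actr1b was still a small part of the pair: Actr1a held 96.6 ± 2.08% of the summed level in knockout and 99.9 ± 0.178% in control oocytes. Of the barbed-end cap, Capzb rose (1.63 ± 0.54, adjusted p = 0.0447) and Capza2 fell (-0.60 ± 0.16, adjusted p = 0.0164). Actr10 (0.12) and Capza1 (0.10, with 57.8% of windows shared with other genes) did not pass. Actr1b lost its call without knockout replicate 2 (adjusted p = 0.0639) and was at 6.55 without control replicate 3. Capzb lost it whichever library other than control replicate 3 was left out (0.0694 to 0.104), and without that replicate it was at 2.27, and Capza2 without knockout replicate 1 (0.0550) or 2 (0.0623). Capza2 did not pass with scaling by library totals alone (-0.21, adjusted p = 0.301), nor with a length trend removed (-0.44, 0.0690).

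Among 6 pairs of alternative subunits, including that of Dynll1 and Dynll2, the major partner by mean share of the level per length was the same in both groups except in the Dynll pair. All these shares depend on the summed exon lengths used. Dync1i2 held 84.2 ± 4.50% of its pair with Dync1i1 in knockout and 90.7 ± 6.09% in control oocytes, and Capza2 held 84.3 ± 4.82% and 89.8 ± 1.70% of its pair with Capza1, both with overlap. Dynlrb1 held 98.0 ± 1.47% in knockout oocytes and 100% in control oocytes, where Dynlrb2 had no count. Dync1li1 held 90.4 ± 6.61% of its pair with Dync1li2 in knockout oocytes and 65.2 ± 37.9% in control oocytes, where single oocytes ranged from 18.2% to 100%.

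Of 3 dynein regulators, 1 rose and 1 fell. Ndel1, which binds dynein and its regulator Lis1, had 101, 102, 55.8 and 96.1 CPM in knockout replicates 1 to 4, against 17.3, 14.4, 12.3 and 16.9 CPM in control replicates 1 to 4 (log2 fold change 2.55 ± 0.26, adjusted p = 7.47e-05). Its paralog Nde1 averaged 31.5 ± 1.81 CPM in knockout and 45.6 ± 13.1 CPM in control oocytes and did not pass (-0.53 ± 0.24, adjusted p = 0.131). Pafah1b1, which encodes Lis1, averaged 147 ± 13.5 CPM in knockout and 233 ± 44.7 CPM in control oocytes (-0.66 ± 0.18, adjusted p = 0.0178). The Pafah1b1 call was lost without knockout replicate 1 (0.0593) or 2 (0.0549), with library totals only (-0.27, adjusted p = 0.265) and with a length trend removed (-0.29, 0.255).

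**Figure D4:**
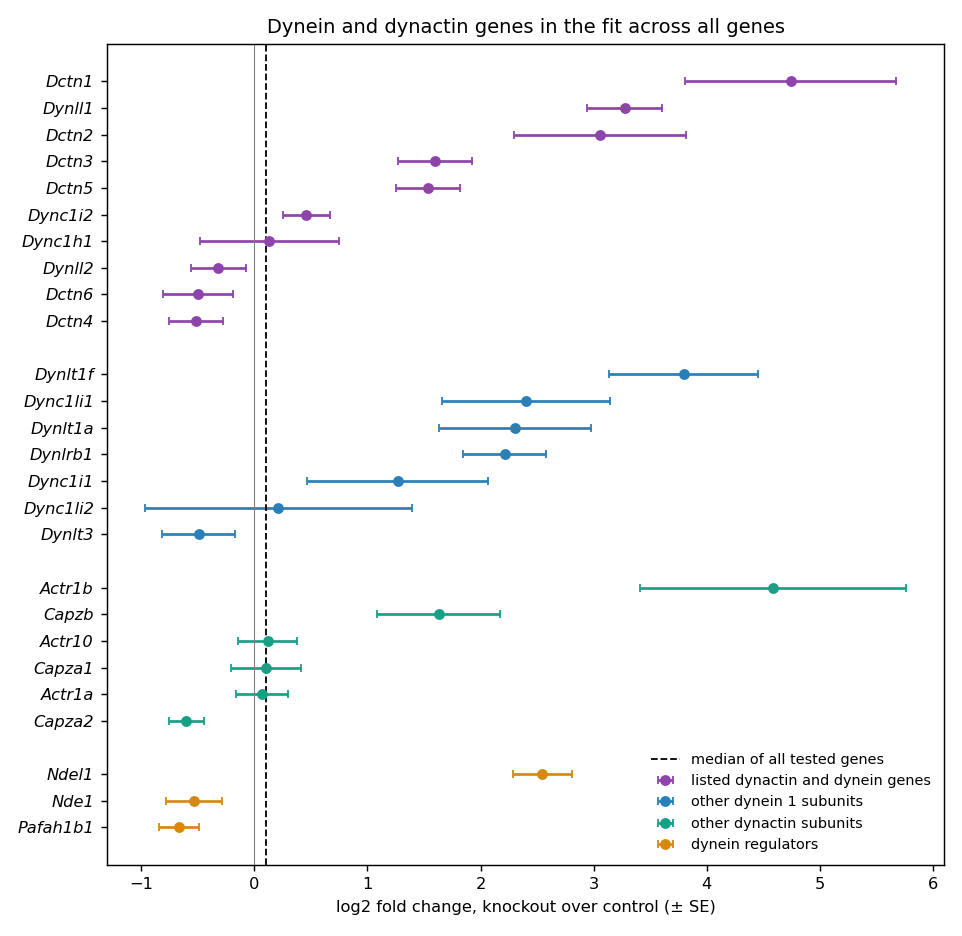
Log2 fold change of knockout over control with its SE (x, points and bars) for the 10 listed genes and for the tested genes of 3 related lists (rows). The dashed line is the median of all tested genes, 0.10, and the grey line is 0; Dynll1 (3.27) and Dynll2 (-0.32) stand far apart.

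Adaptors couple dynein and dynactin to their cargo. Of 11 tested adaptors, 1 rose and 1 fell (median 0.62). Spdl1, the kinetochore adaptor Spindly, averaged 440.3 ± 36.1 CPM in knockout and 286 ± 65.7 CPM in control oocytes (log2 fold change 0.62 ± 0.18, adjusted p = 0.0277), and Hook1 averaged 151 ± 47.2 CPM in knockout and 239 ± 29.4 CPM in control oocytes (-0.66 ± 0.22, adjusted p = 0.0423). Spdl1 lost its call without knockout replicate 2 or 3 or control replicate 2 or 3 (0.0599 to 0.0689), and Hook1 whichever library other than knockout replicate 3 or control replicate 1 was left out (0.0676 to 0.140). Hook1 also did not pass with library totals only (-0.29, adjusted p = 0.310) or with a length trend removed (-0.33, 0.280).

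Of 10 genes for recruitment to kinetochores, spindle poles and microtubule plus ends, 1 rose and 2 fell (median -0.21). Zw10, part of the kinetochore complex that recruits Spindly and dynein, averaged 35.6 ± 5.90 CPM in knockout and 9.71 ± 1.63 CPM in control oocytes (1.87 ± 0.27, adjusted p = 0.000691), while its complex partners Kntc1 (-0.28) and Zwilch (-0.13) did not pass. The plus-end protein Mapre1 averaged 438 ± 32.1 CPM in knockout and 794 ± 44.4 CPM in control oocytes (-0.86 ± 0.14, adjusted p = 0.00133), and Cenpf, a kinetochore protein that binds Nde1 and Ndel1, averaged 340.4 ± 49.0 CPM in knockout and 539 ± 88.8 CPM in control oocytes (-0.66 ± 0.17, adjusted p = 0.0157). Cenpf did not pass with library totals only (-0.27, adjusted p = 0.308) or a length trend removed (-0.25, 0.339). Gpsm2, which links dynein to the cortex, did not pass (2.00 ± 0.71, adjusted p = 0.0565) but did without control replicate 1 (3.50, adjusted p = 0.000643), one of 6 alternatives of 15 in which it passed. Numa1 (-0.32), Mapre2 (0.23), Mapre3 (0.95) and Clip1 (-0.55) did not pass; Clip1 did without control replicate 4 (-0.66, adjusted p = 0.0292), with median-of-ratios size factors (0.0439) and in DESeq2 (0.0180), Mapre2 did with scaling by library totals alone (0.62, 0.0146) and with a length trend removed (0.62, 0.0129), and Mapre3 was at 1.76 without control replicate 3.

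The dyneins of cilia were the remaining lists. Of 5 tested genes of cytoplasmic dynein 2, 1 rose and 0 fell in edgeR, and 0 were lower at an unadjusted p under 0.05 or in DESeq2. Dynlt2b rose (2.65 ± 0.61, adjusted p = 0.0089, and 3.36 without control replicate 1), and Dync2h1 (0.01), Dync2i1 (0.07), Dync2i2 (1.65) and Dync2li1 (2.54) did not pass. Without control replicate 4, Dync2li1 passed (4.11, adjusted p = 0.0232), and Dync2i2 (2.77) and Dync2i1 (0.76) still did not; Dync2i1 was at -0.52 without knockout replicate 2. Of 9 tested axonemal heavy chains, 0 rose and 0 fell in edgeR, and 0 were higher and 2 lower at an unadjusted p under 0.05. Their log2 fold changes ran from -1.79 for Dnah6 (-2.56 without knockout replicate 3) to 0.69 for Dnah7a with a median of -0.30. In DESeq2, 0 were higher and 1 was lower, Dnah9 (adjusted p = 0.0457), as it did in edgeR without control replicate 1 (-1.17, 0.0414).

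The 10 genes span a wide range of lengths, and the part of length in their differences was not tested. The 2 shortest coding sequences, 267 bases each, belong to Dynll1 and Dynll2. Dctn5 had 546 coding bases, Dctn3 558, Dctn6 585 and Dctn1 3843. The 3′ untranslated regions ran from 162 bases in Dctn1 to 1911 in Dynll2, against a median of 976 over the 10043 tested genes with a coding transcript in GENCODE release M21.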

How the data were processed

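Per the labels' protocols, single oocytes were lysed, and their RNA was amplified with the SMARTer Ultra Low kit and sequenced as 75-base single reads. The kit marks neither strand nor molecule, so floors cover counting error only, and reads of genes that overlap on opposite strands are mixed. Per the file headers, the authors counted reads per gene with featureCounts on gene models of Ensembl release 69, keeping mapping qualities from 1 and using no strand or multi-mapping option. The submitters' processing notes name GSNAP, featureCounts 1.4.4, DESeq2 1.3.79 and build mm10. The deposited values used were raw counts (whole numbers in all 8 columns), gene lengths and, from the authors' deposited table, which genes it lists with their log2 fold changes and adjusted p-values.

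The test was the quasi-likelihood F test of edgeR 4.0.16 (R 4.3.3) on genotype alone, after filterByExpr and TMM, with Benjamini-Hochberg adjustment over 11066 genes and a threshold of 0.05. Symbols came from a gene name table (35449 of 37224 identifiers). CPM uses TMM-scaled totals, with factors of 1.07 to 1.22 in knockout and 0.800 to 0.947 in control libraries, and level per length divides CPM by the summed exon length. The fit was checked on simulated counts. Within groups, libraries differed by far more than sampling noise (chi-square per degree of freedom 32.4 to 108), so none was counted with another. Alternatives were scaling by median-of-ratios factors or by library totals only, a length trend removed per library (loess, span 0.5), no filter on low counts, at least 10 CPM in 4 libraries, DESeq2 1.42.0, the replicate number as a block, and each library left out in turn. The listed genes and the related lists were chosen with earlier results of these data known. Genes named are the 10 listed, Setd1b, each related gene past the threshold, and the tested genes of lists with at most 10 tested members; of the axonemal heavy chains only the extremes and Dnah9 are named. Adaptors that did not pass are given by count, and Cyp19a1 and Kitl were named after their values were seen.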

Additional observations from a re-analysis of the deposited data

Results flagged for a closer look

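In 9 of 110 groups of 4 oocytes examined, 1 oocyte stood far from the other 3 in CPM. Its gap to the nearest other oocyte over the range of the group was past the Dixon limit. For normally distributed values, chance passes that limit in about 1 in 20 groups. CPM from few counts need not be distributed so, and the count of flags was not tested against chance. Among the 10 listed genes, Dctn2 in control oocytes had a gap over range of 0.834 (replicate 2 at 2.47, the others at 0.200 to 0.577 CPM), and Dctn5 in control oocytes had 0.832 (replicate 3 at 11.9, the others at 21.8 to 23.8 CPM). Among related genes, control replicate 4 stood apart for Dync1li2 (0.91; 7.10 against 0 to 0.639 CPM) and control replicate 3 for Actr1b (0.838; 0.494 against 0 to 0.0798 CPM). Control replicate 1 stood apart for Gpsm2 (0.89; 25.4 against 2.14 to 4.70 CPM) and Dynlt2b (0.934; 4.40 against 1.10 to 1.32 CPM). Knockout replicate 1 was low for Dynlt3 (0.984; 67.5 against 172 to 173 CPM), and knockout replicate 3 was low for Ndel1 (0.865; 55.8 against 96.1 to 102 CPM). Of the cumulus and granulosa markers, Kitl in control oocytes had 0.847 (replicate 4 at 14.5, the others at 31.5 to 34.5 CPM). No cause was tested.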

How the results depend on the processing

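The fit called 2850 genes, and from 2449 to 3562 under the scaling, filter and tool alternatives. Scaling by library totals alone moved the median of all tested genes to 0.49 (log2), against 0.10, and 2377 genes were higher and 510 lower, in place of 1503 and 1347. With each library left out in turn, 1849 to 2841 genes were called, fewest without knockout replicate 2. Of related genes 15 were called, 10 higher and 5 lower, and 7 to 17 with 1 library left out, again fewest without knockout replicate 2. The other scaling, filter and tool alternatives called 11 to 19 of them. They split into 14 higher and 1 lower with library totals only, and into 12 and 1 with the length trend removed. In all, 6 related genes (Dynlrb1, Dynlt1f, Dynlt2b, Ndel1, Zw10 and Mapre1) were called in every alternative in which they were tested. Of these, Dynlt1f had 0 control libraries past the filter on low counts and Dynlt2b had 3, which limits their calls. Same-numbered oocytes did not deviate together (correlations -0.215 to -0.046), so the numbers were not used as pairs in the main fit. These correlations cannot exclude a link behind the numbers. With the replicate block 1951 genes and 9 related genes (7 higher, 2 lower) were called. Dctn1, Dctn2 and Dync1h1 were not tested at 10 CPM in 4 libraries. Setd1b did not pass with library totals only (-1.04, adjusted p = 0.0887), the length trend removed (0.0754) or the block (0.0700). The cause of these shifts was not tested. Among the 10 listed genes, depth limits Dctn1 and Dctn2 most, with 7 and 45 counts over the control oocytes; of the related genes named, Actr1b (7), Dync2li1 (16), Dynlt1f (22) and Dync2i2 (32) were also low there.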
